A study of Mus musculus with 8 samples.

Results

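The transcripts of 10 genes that mark maturing neutrophils were followed well by well in single bone marrow progenitors of mice heterozygous for Mof and of wild type mice. The 10 genes were taken by name out of 19879 gene names in the 8 count files. They are S100a8 and S100a9, the 2 chains of calprotectin, the secondary granule genes Ltf, Camp, Ngp and Lcn2, and Retnlg, Mmp8, Mmp9 and Chil3. RNA was measured with CEL-Seq2, in which every captured mRNA receives a well barcode and a molecular identifier, so that copies are counted once. The 8 libraries form 4 groups of 2, namely Mof -/+ HSC, wild type HSC, Mof -/+ plate2 and wild type plate2. HSC libraries hold sorted haematopoietic stem cells, while a plate2 library holds cells from several sort gates, and which well belongs to which gate is not labelled. All libraries come from frozen sorted cells of bone marrow, and the labels name no age, strain, treatment or number of animals. Mof, now called Kat8, encodes a histone acetyltransferase, and it gave 9 and 12 transcripts in the Mof -/+ plate2 libraries, 10 and 4 in wild type plate2, 1 and 2 in Mof -/+ HSC and 1 and 2 in wild type HSC, too few to check the labels. Separate mice are not stated for the libraries of a group, so the p-values below reflect library-to-library spread that may be technical.

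Of 1536 barcodes, 436 reached 1000 transcripts and count here as kept wells, from 45 to 68 per library. Kept transcripts per library ran from 99253 to 733925. A well with at least 10 transcripts of the 10 genes is called marked here. There were 15 marked wells in all, and 13 of them were among the 436 kept wells. Of the 8 files 6 listed 9 or 10 of the genes, and those of Mof -/+ plate2 library 2 and wild type HSC library 2 listed 6. A gene without a row in a file was counted as 0 there.

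Neutrophils build their granules in steps. Promyelocytes make the primary granule proteases, myelocytes make lactoferrin, cathelicidin and the other secondary granule proteins, and late forms make the gelatinases of tertiary granules, while calprotectin fills the cytosol. These genes are silent in stem cells, and stem cell and progenitor gates are drawn on cells without the surface markers of mature granulocytes. C/EBP factors and PU.1 are the transcription factors best known for switching on the granule genes.

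In the GENCODE annotation of GRCm38, S100a8 lies on chromosome 3 (90668978 to 90670035, plus strand) and S100a9 beside it (90692632 to 90695721, minus strand). Chil3, a chitinase-like protein gene, is on the same chromosome (106147554 to 106167564, minus strand). Camp (109847379 to 109849617, minus), Ltf (111019271 to 111042767, plus), Ngp (110419747 to 110423012, plus) and Mmp8 (7558456 to 7568485, plus) are on chromosome 9. Lcn2 (32384633 to 32388252, minus) and Mmp9 (164940780 to 164955850, plus) are on chromosome 2, and Retnlg (48872621 to 48874496, plus) is on chromosome 16. Promoter windows of 300 bases, from 250 bases before the RefSeq start to 50 after it in build GRCm38.p6, were at hand for 9 of the 10 genes, Mmp9 being the one without. The windows were searched on both strands for the C/EBP core TTGCNNAA and the PU.1 core GAGGAA. The C/EBP core was found in 6 of the 9 windows (Lcn2, Ltf, Mmp8, Ngp, Retnlg and S100a9), and in 10.8% of 32851 windows of all genes. The PU.1 core was found in 4 of the 9 (Lcn2, Ltf, Mmp8 and S100a8), and in 28.3% of all windows. No C/EBP match overlapped a PU.1 match in these 9 windows. A match is a description of letters and not a mapped site. The windows of the calprotectin pair are shown because these 2 genes gave most of the transcripts, and those of Lcn2 and Mmp8 because each holds both cores. The window of Ltf holds both as well and is not shown. Capitals mark the matches, C/EBP cores being 8 letters long and PU.1 cores 6, and each line reads 5′ to 3′ on the strand of its gene.
S100a8, chr3:90668821-90669120, plus strand: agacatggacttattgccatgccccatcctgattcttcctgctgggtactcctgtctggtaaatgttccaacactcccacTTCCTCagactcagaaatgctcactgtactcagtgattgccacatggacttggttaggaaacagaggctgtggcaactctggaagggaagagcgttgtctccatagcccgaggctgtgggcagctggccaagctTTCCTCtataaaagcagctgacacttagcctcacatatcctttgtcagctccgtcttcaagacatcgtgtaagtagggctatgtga
S100a9, chr3:90695672-90695971, minus strand: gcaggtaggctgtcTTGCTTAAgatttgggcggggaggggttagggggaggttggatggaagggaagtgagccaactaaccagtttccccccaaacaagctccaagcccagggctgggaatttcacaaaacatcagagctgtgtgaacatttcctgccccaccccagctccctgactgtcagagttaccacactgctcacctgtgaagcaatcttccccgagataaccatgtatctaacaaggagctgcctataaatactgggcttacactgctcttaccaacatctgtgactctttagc
Lcn2, chr2:32387690-32387989, minus strand: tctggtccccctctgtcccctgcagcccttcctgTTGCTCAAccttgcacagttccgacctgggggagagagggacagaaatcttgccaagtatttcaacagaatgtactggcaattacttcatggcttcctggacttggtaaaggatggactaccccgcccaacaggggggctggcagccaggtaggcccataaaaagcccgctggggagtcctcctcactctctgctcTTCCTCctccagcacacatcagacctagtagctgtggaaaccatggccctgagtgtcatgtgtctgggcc
Mmp8, chr9:7558179-7558478, plus strand: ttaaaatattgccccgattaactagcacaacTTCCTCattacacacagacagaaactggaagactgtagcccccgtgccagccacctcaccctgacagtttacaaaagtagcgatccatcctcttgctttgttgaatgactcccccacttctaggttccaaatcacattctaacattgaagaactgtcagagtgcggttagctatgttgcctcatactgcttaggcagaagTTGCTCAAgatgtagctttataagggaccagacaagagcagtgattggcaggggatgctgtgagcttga

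A few wells held nearly all transcripts of the 10 genes, in HSC and in plate2 libraries. Over all barcodes the Mof -/+ HSC libraries held 283 and 539 transcripts of the 10 genes, against 559 and 28 in the wild type HSC libraries. The Mof -/+ plate2 libraries held 214 and 29, against 1961 and 906 in the wild type plate2 libraries. Marked wells held 89.5% of the transcripts of the Mof -/+ HSC group, 87.1% of the wild type HSC group, 71.2% of the Mof -/+ plate2 group and 96.5% of the wild type plate2 group. Among kept wells, 3 of 136 Mof -/+ HSC wells were marked (2.21%, exact Clopper-Pearson 95% interval 0.457% to 6.31%), against 3 of 96 wild type HSC wells (3.12%, 0.649% to 8.86%). In plate2 libraries, 1 of 94 Mof -/+ wells was marked (1.06%, 0.0269% to 5.79%), against 6 of 110 wild type wells (5.45%, 2.03% to 11.5%). The intervals cover counting error only and overlap in both sets. Kept wells include some outside a library's own barcodes, which are the lower or upper 96 numbers, whichever held more transcripts. These numbered 0 and 1 in Mof -/+ HSC, 0 and 0 in wild type HSC, 3 and 0 in Mof -/+ plate2 and 11 and 4 in wild type plate2. None of them was marked, but they count in the percentages and among the other kept wells. Whether they hold cells was not tested. Per library the marked wells, kept or not, numbered 1 and 3 in Mof -/+ HSC, 3 and 0 in wild type HSC, 1 and 0 in Mof -/+ plate2 and 3 and 4 in wild type plate2. Wild type HSC library 2 therefore stood apart from library 1 of its own group, and every HSC value below rests on that split. Of the 4 in wild type plate2 library 2, barcode 168 lies outside that library's own barcodes. It held 74 transcripts in all, 10 of them of the 10 genes, while the same number held 1146 of these in wild type plate2 library 1.

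Summed over all libraries, most transcripts of each of the 10 genes were in marked wells, though not every gene was in every marked well. Of 1362 S100a8 transcripts over all barcodes 93.6% were in marked wells, and of 1598 S100a9 transcripts 94.2%. Among the secondary granule genes the share was 90.7% of 86 transcripts for Ltf, which encodes the iron-binding protein lactoferrin, 94.5% of 218 for Camp, which encodes the antimicrobial cathelicidin, 90.5% of 316 for Ngp, which encodes neutrophilic granule protein, and 86.5% of 297 for Lcn2, whose product binds bacterial siderophores. It was 93.2% of 308 for the resistin-like gene Retnlg, 88.6% of 219 for the collagenase gene Mmp8, 86% of 50 for the gelatinase gene Mmp9 and 86.2% of 65 for Chil3. These shares follow in part from the rule that marked the wells, so they carry no test. Chil3 was found in 7 of the 15 marked wells and Mmp9 in 8. In the Mof -/+ plate2 group the marked well held 81.5% of 151 S100a8, 65.6% of 64 S100a9, 66.7% of 3 Camp and 100% of 6 Chil3 transcripts. It held 0% of 12 Mmp8 transcripts, of 2 each of Ltf, Ngp and Lcn2, and of 1 of Mmp9. The rule left few wells near its edge. Among kept wells, the marked well with fewest transcripts of the 10 genes had 26 and the unmarked wells with most had 8, in Mof -/+ HSC library 2, wild type plate2 library 1 and, below them, 6 in Mof -/+ plate2 library 2.

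The marked wells differed among themselves in which of the genes they held. The richest was barcode 168 of wild type plate2 library 1, where 1146 of 5140 transcripts (22.3%) came from the 10 genes and all 10 were detected. It held 353 S100a8, 477 S100a9, 62 Camp, 72 Mmp8 and 27 Retnlg transcripts. Over the 13 kept marked wells the share of the 10 genes ran from 0.473% to 22.3% of a well's transcripts, with a median of 6.81%. In the other 423 kept wells it ran from 0 to 0.677%, with a median of 0. The median depth of the marked wells was 2924 transcripts, and that of the other kept wells 3280.

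Calprotectin made up 44.4% to 95.4% of the transcripts of the 10 genes in the kept marked wells. S100a8 and S100a9 were both present in each of the 15 marked wells. In 12 of the 13 kept ones the ratio of S100a8 to S100a9 transcripts lay between 0.462 and 1.18. The exception was barcode 73 of Mof -/+ plate2 library 1, with 123 S100a8 and 42 S100a9 transcripts, a ratio of 2.93.

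**Figure D1:**
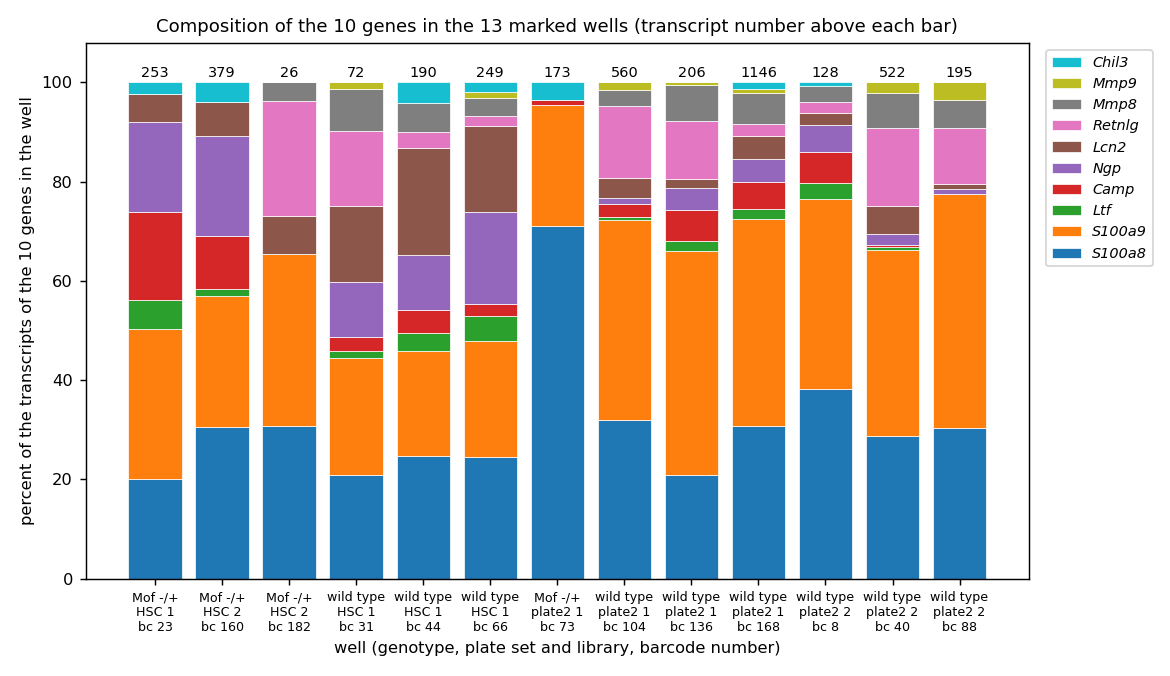
Composition of the 10 genes in the 13 kept marked wells, with wells along the horizontal axis (Mof -/+ left of wild type within each plate set; bc is the barcode number) and the percent of the well's transcripts of the 10 genes on the vertical axis. Numbers above the bars are transcripts of the 10 genes, from 26 to 1146, and the bar of Mof -/+ plate2 is almost all S100a8 and S100a9 (95.4%).

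The balance of the late genes Retnlg, Mmp8 and Mmp9 against the secondary granule genes Ltf, Camp and Ngp varied from one extreme to the other. Barcode 23 of Mof -/+ HSC library 1 held 45 Camp, 46 Ngp and 15 Ltf transcripts and no Retnlg, Mmp8 or Mmp9. Barcode 160 of Mof -/+ HSC library 2 was built the same way, with 41 Camp, 76 Ngp and 5 Ltf transcripts and none of the late genes. Barcode 99 of that library, a well of only 935 transcripts, was the reverse, with 20 Retnlg, 8 Mmp8 and 2 Mmp9 transcripts and none of Ltf, Camp or Ngp. Barcode 182 there held 6 Retnlg and 1 Mmp8 and again none of the secondary trio. Lcn2, the remaining secondary granule gene, was not counted in this balance. It gave 3 transcripts in barcode 99 and 2 in barcode 182, against 14 in barcode 23 and 26 in barcode 160. Every kept marked well of the wild type libraries held both kinds. The late genes made 20.7% to 62.1% of the 2 kinds together in the 3 wild type HSC wells and 26.9% to 95.2% in the 6 wild type plate2 wells. The lowest plate2 value was in barcode 8 of library 2, and the highest in barcode 88, which held 22 Retnlg, 11 Mmp8 and 7 Mmp9 against 2 Ngp transcripts. With 4 Mof -/+ wells against 9 wild type wells, spread over 6 libraries, the genotypes were not tested on this balance.

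The single marked well of the Mof -/+ plate2 libraries was unlike all others. Barcode 73 of library 1 held 36591 transcripts, the most of any marked well, and only 0.473% came from the 10 genes. It held 2 Camp and 6 Chil3 transcripts and none of Ltf, Ngp, Lcn2, Retnlg, Mmp8 or Mmp9. The same well held 455 Mpo, 323 Prtn3, 274 Elane and 174 Ctsg transcripts, the myeloperoxidase and serine proteases of primary granules, and 28 Fcnb. Primary granule genes were 4.41% of its transcripts, while in the other 12 kept marked wells they were 0 to 0.4%. Cell division genes were 0.533% of it, and 0 to 0.679% of the other 12. In the 6 wild type plate2 wells the 17 cell division genes gave 1 to 6 transcripts each.

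Other genes of the neutrophil lineage sat in most of the same wells. Barcode 182 of Mof -/+ HSC library 2, with 26 transcripts of the 10 genes, was an exception. It held 0 transcripts of NADPH oxidase genes and 1 of other mature neutrophil genes. Beside them were 9 erythroid, 13 cell division and 6 stem cell transcripts. Of 10035 genes with at least 20 transcripts over the kept wells, 15 (0.149%) had at least 50% of their transcripts in the 13 marked wells, while 2.39% of all transcripts and a median of 1.75% per gene were there. The 10 genes most like the granule genes by this share, over 436 wells of 8 libraries, were Ly6g (21 of 22 transcripts, 95.5%), Fcnb (34 of 36, 94.4%), Wfdc21 (73 of 78, 93.6%), Lilr4b (28 of 31, 90.3%), Rasgrp4 (16 of 21, 76.2%), Cybb (80 of 109, 73.4%), C3 (16 of 25, 64%), Trem3 (17 of 28, 60.7%), and Hdc and Pglyrp1 (12 of 21 each, 57.1%). Ly6g encodes the surface antigen that defines mouse neutrophils, and it was found in 5 of the 13 wells. Fcnb, which encodes a ficolin of granulocyte precursors, gave 28 of its transcripts in barcode 73 of Mof -/+ plate2 library 1. Of the marked-well transcripts, that well also gave 12 of 16 for C3, 8 of 17 for Trem3, 6 of 12 for Hdc and 5 of 12 for Pglyrp1. It gave 13 of 73 for Wfdc21, 12 of 80 for Cybb and 0 for Ly6g, Lilr4b and Rasgrp4. Wfdc21 was spread most widely of those 10 but for Cybb, over 10 of the 13 wells. The formyl peptide receptor gene Fpr1 had 12 transcripts in 8 of the marked wells and 0 in the other kept wells, and Cd177, a neutrophil surface glycoprotein gene, had 14 in 7 of them against 3 in the other kept wells. Both come from the list of 38 other mature neutrophil genes, of which 32 were measured, and were picked out after their values were seen.

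Sums of the marked wells were then set against the other kept wells of the same library, over the 6 libraries with a kept marked well and with library as a block. The granule genes chose the wells, so their values here are no result. Of the 758 other genes that passed the low-count filter, 12 (1.58%) were higher and 6 (0.792%) were lower in the marked wells at an edgeR adjusted p under 0.05, adjusted over 760 genes with the 2 granule genes that passed it. DESeq2 called 28 higher and 27 lower, and edgeR without wild type plate2 library 1 or library 2 called 3 lower. A gene that is rare in the other wells could pass the filter only where it was high in the marked wells, so how many tested members of a list rose is no support for the list. The oxidase that makes superoxide in phagocytes was among the rises. Cybb, its membrane subunit, had a median of 1440.9 CPM in marked wells against 1.2 CPM in the other wells over the 6 libraries, a log2 fold change of 7.95 ± 0.77 (SE, edgeR adjusted p = 2.53e-22). Ncf1, a cytosolic subunit, had 1340.3 against 41.8 CPM (5.0 ± 0.64, edgeR adjusted p = 8.2e-13). Both were higher in the marked wells of 6 of 6 libraries. In Mof -/+ HSC library 2 they came from barcode 160 (12 and 7 transcripts), while barcode 182 held 0 of either. Of the 6 oxidase genes 3 passed the filter.

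Of the other mature neutrophil genes 2 of 32 measured passed the low-count filter, Hp and Alox5ap. Hp, which encodes the haemoglobin scavenger haptoglobin, had a median of 776.7 CPM in marked wells and 2.09 CPM in the others (6.05 ± 0.65, edgeR adjusted p = 6.35e-18). Alox5ap, the activating protein of leukotriene synthesis, stood at 2.35 ± 0.56 (edgeR adjusted p = 0.00142). Of the 6 measured lysozyme and S100 genes outside the 10, Lyz1 and S100a11 passed the filter. Lyz1 had a median of 4497.0 against 149.3 CPM (4.5 ± 0.70), and the calcium-binding gene S100a11 had 1178.9 against 136.8 CPM (3.37 ± 0.69), although S100a11 had 0 transcripts in the marked well of Mof -/+ HSC library 1. Without wild type HSC library 1, S100a11 and Alox5ap lost their calls (edgeR adjusted p = 0.0511 and 0.191). The further named rises were Ly6c2 at 4.66 ± 0.74, Gda at 4.49 ± 0.60, Hk3 at 4.05 ± 0.62, Tmsb4x at 3.07 ± 0.63 and Prdx5 at 2.85 ± 0.56. Ly6c2 is shared by neutrophil precursors and monocytes and was the only monocyte list gene tested. It had 75 of its 105 marked-well transcripts in barcode 73 of Mof -/+ plate2 library 1. The 15 monocyte list genes gave 110 transcripts in the 13 marked wells, of which 105 were Ly6c2, and 10 of the 15, the defining genes Csf1r and Ccr2 among them, were at 0. The list made 0.02% to 0.213% of the marked wells of a library and 0.00864% to 0.076% of its other kept wells, the marked wells being higher in 6 of 6 libraries, and the part of monocytes in these values was not tested.

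Some genes of the red cell lineage were lower in the sums of the marked wells, though not against a typical other well in every library. In wild type HSC library 1 the erythroid list made a median of 0.201% per marked well. Its other kept wells had a median of 0.168% and a highest value of 41.2%. In Mof -/+ HSC library 2 the medians were 0.2% and 0.126%. In each other library with a kept marked well the marked median was lower. Of 5 erythroid genes tested, 3 fell. Car2, a carbonic anhydrase gene, had a median of 128.9 CPM in marked wells and 1124.6 CPM in the others (-3.41 ± 0.80, edgeR adjusted p = 0.00111). The globin genes Hbb-bt at -3.17 ± 0.96 and Hba-a1 at -2.86 ± 0.84 fell as well, with near-identical copies that counting can split. Tal1, the transcription factor of stem and erythroid cells, had 0 transcripts in the marked wells and 475 in the others, so it was at least 5.21-fold lower with 3 counts set as the floor over the marked wells (edgeR adjusted p = 0.00197). Rpl14, a ribosomal protein gene, fell by 2.94 ± 0.88, with 70 transcripts in barcode 73 of Mof -/+ plate2 library 1 and 0 in every other kept marked well. The calls of Hbb-bt, Hba-a1 and Rpl14 depended on single libraries. Hbb-bt did not pass the low-count filter without wild type HSC library 1 and lost its call without any 1 of the other 5 libraries (edgeR adjusted p from 0.0604 to 0.220). Hba-a1 lost its call without wild type HSC library 1 or either Mof -/+ HSC library (edgeR adjusted p from 0.0622 to 0.184). Rpl14 lost its call without any 1 library but Mof -/+ plate2 library 1 (edgeR adjusted p from 0.0901 to 0.220), and stood at -10.03 without that library, a fitted value against 0 counts. None of 3 stem cell genes passed, the smallest p being those of Ctla2a at -2.41 ± 0.82 (edgeR adjusted p = 0.0895), Hlf at -2.16 ± 0.75 (0.0935) and Kit at -1.62 ± 0.74 (0.217), which was higher in the marked wells of wild type HSC library 1 (302.1 against 161.9 CPM). None of 6 cell division genes passed either (Stmn1 -0.83, Mcm6 -0.78 and Mcm5 0.71), nor any of 3 primary granule genes (Gstm1 0.99, Prtn3 0.53 and Srgn -0.28). The median log2 fold change of all 760 genes was -0.50, and -0.44 with RLE size factors.

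**Figure D2:**
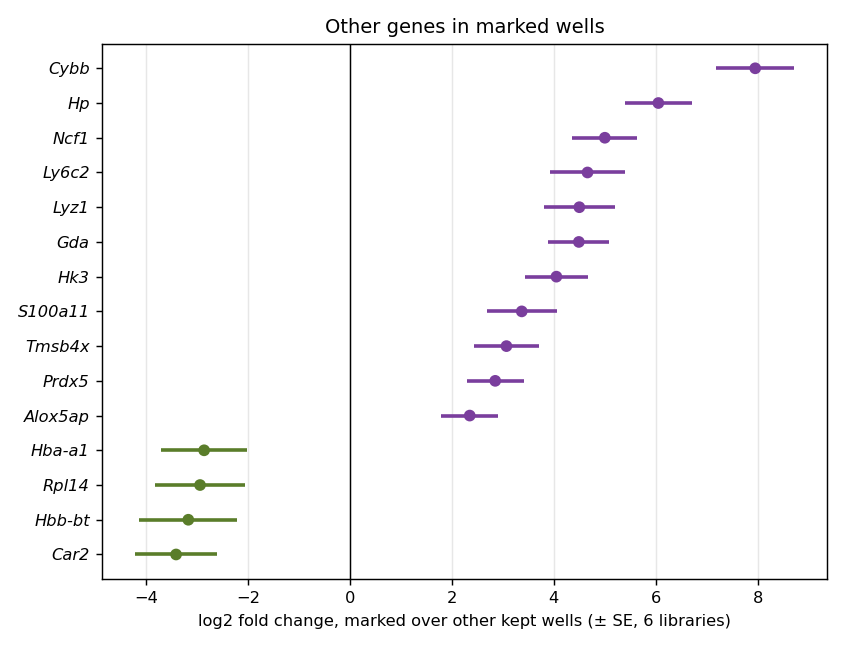
Log2 fold change of the named genes that passed the test in marked wells over the other kept wells (horizontal axis, points with SE bars, 6 libraries), leaving out Tal1, which had 0 transcripts in marked wells. Cybb (7.95) and Hp (6.05) stand farthest right, and Car2 (-3.41) farthest left.

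In the marked wells of the HSC libraries stem cell genes were not absent. The 15 stem cell genes made 0.0405% of the marked well of Mof -/+ HSC library 1, 0.18% of those of library 2 and 0.272% of those of wild type HSC library 1. The other kept wells of the same libraries stood at 0.388%, 0.548% and 0.397%. In the plate2 sets these genes gave 8 transcripts in the marked Mof -/+ well and 1 in the 6 marked wild type wells. The 10 platelet genes gave 20 transcripts in barcode 23 of Mof -/+ HSC library 1, of which Pf4 gave 7, and 0 or 1 in each other kept marked well.

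In plate2 libraries the genotypes did not overlap for 9 of the 10 genes, each lower in both Mof -/+ libraries than in both wild type libraries. Of all 6690 genes tested 13.2% showed that order. In the fit over all genes 7 of the 10 fell, where 0.523% of all genes tested were called lower and 0.0299% higher. The 7 were S100a9, Camp, Ngp, Lcn2, Retnlg, Mmp8 and Mmp9. Without the marked wells only S100a8 had counts enough to be tested, so the other genes entered the test through those wells. The 7 calls draw on the same few wells and are not separate results. Their number against the share of all genes is thus no support for the set. The same holds for the other comparisons of library sums below. Their counts sit in few wells, so fewer cells with these transcripts and less RNA per cell cannot be told apart from library sums.

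S100a8 had 212.7 and 4.43 CPM in the Mof -/+ plate2 libraries, against 797.1 and 612.5 CPM in the wild type plate2 libraries. The groups did not overlap, and the summed level was 6.96 times higher in wild type (counting interval 5.81 to 8.40). That interval covers counting error only and not the spread between libraries or wells. Its log2 fold change was -2.85 ± 0.93 (95% interval -4.67 to -1.03) and did not pass over all genes (edgeR adjusted p = 0.417). S100a9 had 74.6 and 7.38 CPM in Mof -/+ plate2, against 1094.1 and 808.0 CPM in wild type plate2, and passed (edgeR adjusted p = 0.0123). Of the Mof -/+ transcripts of the pair, 123 of 137 and 42 of 52 came from barcode 73 of library 1.

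Among the secondary granule genes, Camp had 3.17 and 1.48 CPM in Mof -/+ plate2 libraries, against 125.4 and 25.9 CPM in wild type plate2 libraries (edgeR adjusted p = 0.0118). Ngp had 0 transcripts in both Mof -/+ libraries, against 94 and 49.5 CPM in wild type (edgeR adjusted p = 0.0295). Lcn2 had 0 as well, against 113.1 and 84.8 CPM (edgeR adjusted p = 0.0215). Both wild type libraries lay above both Mof -/+ libraries for all 3. Ltf had 1 transcript over the Mof -/+ libraries, against 37 over the wild type ones, a ratio of wild type over Mof -/+ of 41.8 with a counting interval from 7.05 to 1694.1, and did not pass (edgeR adjusted p = 0.0939).

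Of the late genes, Retnlg had 0 transcripts in both Mof -/+ plate2 libraries, against 183.9 and 252.1 CPM in wild type plate2 (edgeR adjusted p = 0.000329). Mmp8 had 4.76 and 4.43 CPM in Mof -/+ plate2, against 145.8 and 129.6 CPM in wild type plate2 (edgeR adjusted p = 0.00187). Mmp9 had 0 transcripts in both Mof -/+ libraries, against 25.9 and 44.8 CPM in wild type, at least 14.3-fold lower with 3 counts set as the floor over the 2 Mof -/+ libraries (edgeR adjusted p = 0.0143). Chil3 was the exception among the 10. It had 9.52 and 0 CPM in Mof -/+ plate2, against 20.4 and 2.36 CPM in wild type plate2, and the groups overlapped (-1.57 ± 1.07, edgeR adjusted p = 0.997). Its counts are uncertain, since the neighbouring copy Chil4 was not analysed here.

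**Figure D3:**
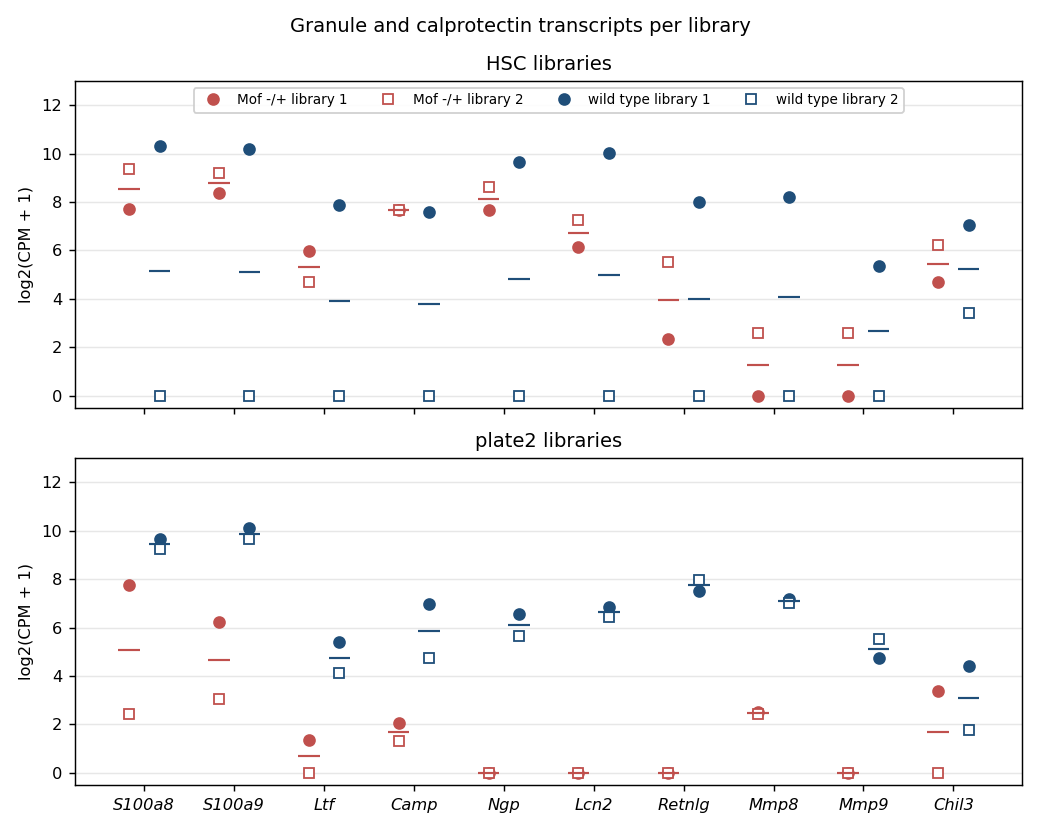
Level of each gene per library as log2(CPM + 1) on the vertical axis and gene on the horizontal axis, for HSC (top) and plate2 libraries (bottom), Mof -/+ in red left of wild type in blue; filled points are library 1, open squares library 2, and lines the means of the log2 values. In plate2 the red and blue points are apart for 9 genes, while in HSC wild type library 2 lies at 0 for all but Chil3.

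The plate2 calls rest on single libraries and single wells. Counts of calls with 1 library left out, here and below, are given without the share of all genes called. They show only how far the calls depend on single libraries. With 1 library left out, so that the lone library of its group is assumed to vary like the others, 0 of the 10 genes passed without Mof -/+ plate2 library 1, 1 without Mof -/+ plate2 library 2, 2 without wild type plate2 library 1 and 3 without wild type plate2 library 2. Without the marked wells, a setting chosen after seeing the data, 1 of the 10 genes had counts enough to be tested, S100a8, at 0.01 (edgeR adjusted p = 0.999). DESeq2 called 1 of the 10.

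Of 91 genes tested from the other 12 lists, 2 fell and 1 rose between the genotypes in plate2. The 10 granule genes had a median log2 fold change of -5.03 and all genes tested one of 0, while the medians of the 12 lists ran from -0.76 to 1.39. S100a6, a calcium-binding protein gene, had 11.1 and 11.8 CPM in Mof -/+ plate2, against 47.7 and 94.2 CPM in wild type plate2 (-2.67 ± 0.47, edgeR adjusted p = 0.0101). The lysozyme gene Lyz1 had 61.9 and 59 CPM in Mof -/+ plate2, against 215.3 and 278.0 CPM in wild type plate2 (-2.15 ± 0.41, edgeR adjusted p = 0.0143). Of their transcripts over all kept wells, 77 of 153 (50.3%) of S100a6 and 268 of 553 (48.5%) of Lyz1 were in the 13 marked wells, and without those wells S100a6 stood at -0.40 and Lyz1 at -0.37, neither passing (edgeR adjusted p = 0.996 for each). The platelet factor gene Pf4 was the one that rose, with 88.9 and 66.4 CPM in Mof -/+ plate2, against 5.45 and 21.2 CPM in wild type plate2 (2.58 ± 0.53, edgeR adjusted p = 0.0225), and it passed without the marked wells as well (2.61). Pf4 lost its call without any 1 of the 4 plate2 libraries, and S100a6 and Lyz1 lost theirs without either Mof -/+ plate2 library or without wild type plate2 library 2. No gene passed in the lists that follow. Of 15 stem cell genes 14 were negative, with a median of -0.65. Of 14 other mature neutrophil genes 9 were negative, with a median of -0.35, of 8 primary granule genes 7 were positive, with a median of 1.09, and the 5 oxidase genes had a median of -0.24.

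In HSC libraries none of the 10 genes passed between the genotypes in edgeR or in DESeq2, where 0% of 6690 genes were called lower and 0.0149% higher by edgeR. At an unadjusted p under 0.05 there were 3 of the 10, Mmp8, Lcn2 and Retnlg, among 722 of all genes. Wild type HSC library 2 had 0 transcripts of 9 of the genes in kept wells, and 1 of Chil3. S100a8 had 208.9 and 661.6 CPM in the Mof -/+ HSC libraries, against 1269.5 and 0 CPM in the wild type HSC libraries. Lcn2 had 69.6 and 154.2 CPM in Mof -/+ HSC, against 1027.7 and 0 CPM in wild type HSC (-2.27 ± 0.77, 95% interval -3.79 to -0.75, edgeR adjusted p = 0.317). Mmp8 had 0 and 4.97 CPM, against 292.2 and 0 CPM (-5.85 ± 1.26, edgeR adjusted p = 0.102). For these 3 genes the 2 wild type values lay on either side of the Mof -/+ values or level with the lower one.

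Camp was the one gene of the 10 whose HSC libraries did not overlap, with 200.7 and 204.0 CPM in Mof -/+ HSC, against 191.4 and 0 CPM in wild type HSC, where 23.1% of all genes tested were higher in both Mof -/+ libraries. Its log2 fold change of 1.03 ± 0.70 did not pass (edgeR adjusted p = 0.614). Without wild type HSC library 1, the directions of S100a8 (10.32), S100a9 (10.41), Mmp8 (2.95), Lcn2 (8.36) and Retnlg (6.10) turned. These fitted values stand against a library with 0 counts and are no bounds.

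Over both plate sets 3 of the 10 genes fell, Retnlg, Mmp8 and Mmp9, where 0.12% of all genes tested were called lower. Lcn2 came next at -3.25 ± 0.70 (95% interval -4.62 to -1.87, edgeR adjusted p = 0.0679), and S100a9 stood at -2.49 ± 0.82 (edgeR adjusted p = 0.489). Leaving out a single library gave from 1 to 8 of the 10, with 1 without Mof -/+ plate2 library 1, 5 without Mof -/+ HSC library 2 and 8 without wild type HSC library 2, and 2 without each of the other 5. The test of whether the genotype effect differed between plate2 and HSC libraries gave 0 of 10, where 0% of all genes were called in either direction by edgeR, and DESeq2 gave 0 of 10 as well. At an unadjusted p under 0.05 were 6 of the 10, among 602 of all genes. The smallest p was that of Camp, where the plate2 effect minus the HSC effect was -6.12 ± 1.18 on the log2 scale (95% interval -8.44 to -3.81, edgeR adjusted p = 0.208). With 1 library left out the Camp value ran from -14.35 to -4.50, so its size rests on single libraries.

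Plate2 and HSC libraries were also compared within each genotype, in comparisons that share libraries with those above. In Mof -/+ mice 7 of the 10 genes were lower in plate2, where 10.3% of all genes tested were called lower. Camp had 3.17 and 1.48 CPM in plate2, against 200.7 and 204.0 CPM in HSC libraries (-6.08 ± 0.88, edgeR adjusted p = 8.53e-05). Ngp had 0 in both plate2 libraries, against 200.7 and 393.0 CPM in the HSC libraries (edgeR adjusted p = 0.000166), and Lcn2 had 0 in both, against 69.6 and 154.2 CPM (edgeR adjusted p = 0.00335). S100a9 had 74.6 and 7.38 CPM in plate2, against 331.8 and 582.0 CPM in HSC libraries (-3.29 ± 0.86, edgeR adjusted p = 0.00898). The other 3 were Ltf, Chil3 and Retnlg, and without Mof -/+ plate2 library 2 the count was 3. In wild type mice 2 of the 10 were lower in plate2, where 8.21% of all genes tested were called lower and 9.55% higher. They were Ngp, with 94 and 49.5 CPM in plate2 against 795.9 and 0 CPM in HSC (-2.13 ± 0.72, edgeR adjusted p = 0.0449), and Lcn2, with 113.1 and 84.8 CPM against 1027.7 and 0 CPM (-2.07 ± 0.71, edgeR adjusted p = 0.0492). Both overlapped between the sets. Without wild type HSC library 1 Ngp stood at 8.12 and Lcn2 at 8.55, the opposite direction. Without any 1 of the 4 plate2 libraries neither call held.

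The 423 unmarked kept wells held at most 8 transcripts of the 10 genes each. Of 123 unmarked kept wells rich in erythroid transcripts (at least 10), which should lack these genes, 18.7% held at least 1 transcript of the 10 (exact interval 12.2% to 26.7%), at a median depth of 12552 transcripts. Of the 300 other unmarked kept wells 17.3% did (13.2% to 22.1%), at a median depth of 2546. Per 100000 transcripts the erythroid-rich wells held 2.19 and the others 8.19. The shares of wells thus compare unequal depths, and the level per transcript was lower in the erythroid-rich wells. No difference in these 10 genes was read from unmarked wells.

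Some of these transcripts sat at the barcode numbers of the marked wells. The 192 barcode numbers are shared by all libraries, and each library has 96 of its own. The 13 kept marked wells have 13 different barcode numbers. At the same number in the other 3 libraries of the same plate set, 33 of 39 barcodes held at least 1 transcript of the 10 genes, 3.51 on average. At the same number in the 4 libraries of the other plate set it was 4 of 52 barcodes, 0.135 on average. Barcodes whose number is not that of a kept marked well held 0.249 on average in HSC and 0.137 in plate2 libraries. The HSC value includes barcode 99 of Mof -/+ HSC library 2, a marked well that was not kept. That well alone held 78 of the 178 transcripts behind the HSC average, so the 2 averages are not like for like. Barcode 168, which held 1146 transcripts in wild type plate2 library 1, held 10, 9 and 6 in the other plate2 libraries. Within a plate set the same-number barcodes held up to 3.85% of the count of the marked well, with a median of 1.07%. Of the 32 transcripts of the 10 genes in kept Mof -/+ plate2 wells other than barcode 73, 11 were in the 3 kept wells whose number was marked in wild type plate2, including 4 of the 6 Mmp8 transcripts.

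The marked wild type plate2 wells also shared a place in the barcode order, a pattern picked out after the values were seen. Their numbers, 104, 136 and 168 in library 1 and 8, 40 and 88 in library 2, all leave a remainder of 8 when divided by 16. Of the 12 own barcodes with that remainder in the wild type plate2 libraries 7 were kept and 6 of the 7 were marked. In the Mof -/+ plate2 libraries 5 of the 12 were kept, with 1089 to 13457 transcripts, and 0 were marked. Over kept wells and empty ones, those 12 barcodes held 22 transcripts of the 10 genes in the Mof -/+ libraries and 2790 in the wild type libraries. The marked Mof -/+ well, barcode 73, has a remainder of 9. The HSC marked wells, at 23, 99, 160 and 182 in Mof -/+ and 31, 44 and 66 in wild type, had 7 different remainders. No label says which sort gate a barcode number stands for.

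**Figure D4:**
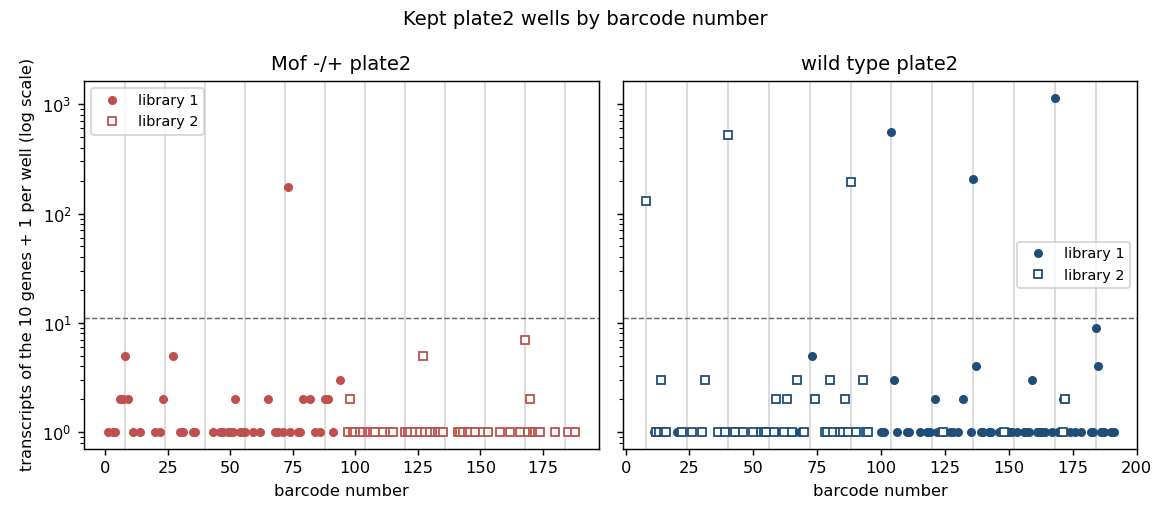
Transcripts of the 10 genes + 1 (vertical axis, log scale) in each kept plate2 well by barcode number (horizontal axis), Mof -/+ left and wild type right, with filled points for library 1 and open squares for library 2. Grey lines are numbers with a remainder of 8 by 16, the dashed line is the threshold of 10 transcripts, and all 6 wild type wells above it lie on grey lines.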

How the data were processed

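The authors deposited expected counts, that is, transcripts per gene and well barcode estimated from molecular identifiers and not scaled for depth, in 1 file per library. Reads were handled with BWA 0.6.2-r126 and mm10, per the submitters' processing notes. How genes were annotated, filtered and counted is not given in the sources used here. Values were rounded to whole numbers, and spike-in rows were left out. Barcodes with at least 1000 transcripts were kept, and no doublet caller was run on these sorted wells. Of the 192 barcode numbers, the lower or upper 96, whichever held more transcripts, were taken as a library's own. Counts summed over kept wells went into the two-sided quasi-likelihood test of edgeR 4.0.16 (R 4.3.3, TMM, filterByExpr), fitted to all 8 libraries in a one-way layout of the 4 groups, or with plate set as a term. Adjusted p values are Benjamini-Hochberg over all genes tested, passed under 0.05, and come from edgeR unless another tool is named. SE is that of the log2 fold change, the 95% interval is 1.96 SE to either side, and CPM are per 1000000 kept transcripts. Marked wells were summed per library and compared within libraries. Ratios of summed counts carry exact binomial counting intervals, which leave out the spread between libraries and wells, and a group at 0 is set to 3 counts. Depth per library limits precision, and HSC libraries hold 99253 to 244109 kept transcripts. The fit was tested on simulated data.

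The genes, the 12 lists beside them and the tests were chosen with earlier results of these data known. All 10 genes are named throughout. Of each list up to 4 genes that passed are named, or up to 3 of smallest p where none did, with a mean of at least 20 CPM. For marked wells the 10 largest rises and 5 largest falls are added, predicted models left out, and the 10 genes with the highest share of transcripts in marked wells. Genes beyond that rule are said to be picked after their values were seen, or illustrate a well. Alternatives were RLE size factors, DESeq2 1.42.0, no low-count filter, 2000 transcripts per well, all barcodes, own barcodes, 1 plate set alone, other thresholds for marked wells, a replicate block and leaving out each library. Leaving out marked wells was added after seeing the data. GENCODE vM21 gave gene positions and RefSeq (GRCm38.p6) the promoters. Other tools were Python 3.11.15, numpy 2.4.6, pandas 2.3.3, scipy 1.17.1, limma 3.58.1 and matplotlib 3.10.9.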

Additional observations from a re-analysis of the deposited data

Results flagged for a closer look

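Transcripts of the 10 genes were also found in barcodes under the depth minimum or outside a library's own set. Barcode 99 of Mof -/+ HSC library 2, a well under 1000 transcripts in all, held 78, and barcode 168 of wild type plate2 library 2, which is not among that library's own barcodes, held 10. Outside the 96 own barcodes the Mof -/+ HSC libraries held 8 and 19, the wild type HSC libraries 13 and 19, the Mof -/+ plate2 libraries 15 and 10, and the wild type plate2 libraries 14 and 26. Each of these is above the 3 counts that a count of 0 allows. No group has more than 2 libraries, so no search for single outlying libraries was made.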

How the results depend on the processing

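In plate2 the 7 became 1 with DESeq2 and 0 without marked wells, and 0 to 9 with 1 library left out. In HSC the 0 became 3 without a filter and 1 with 2000 transcripts per well, and 0 to 3 with 1 library left out. Over both sets the 3 became 0 with DESeq2 and without marked wells, 8 without a filter, and 1 to 8 with 1 library left out. For the difference of effects the 0 became 6 without a filter and 1 with all barcodes, and 0 to 7 with 1 library left out. For plate2 against HSC in wild type the 2 became 0 with DESeq2, own barcodes or no marked wells and 4 without a filter, and 0 to 7 with 1 library left out. In Mof -/+ the 7 became 3 with DESeq2 and 0 without marked wells, and 3 to 8 with 1 library left out. In other genes of marked wells, the 12 higher became 28 with DESeq2 and 103 without a filter, with 13 to 18 when 1 library was left out. The 6 lower became 27, 600 and, with 2000 transcripts per well, 2, with 3 to 8 when 1 library was left out. Some named rises lost their calls. Without a filter these were S100a11, Tmsb4x, Prdx5 and Alox5ap (edgeR adjusted p = 0.117, 0.153, 0.204 and 0.507). Without library block Ly6c2 lost its call (edgeR adjusted p = 0.0694). With marked wells at 5 transcripts their numbers were 9 in Mof -/+ HSC, 5 in wild type HSC, 4 in Mof -/+ plate2 and 12 in wild type plate2. With 1% of a well they were 10, 10, 5 and 13. Wild type plate2 had the most under both. These counts run over all barcodes, kept or not, and include barcodes that share a number with a marked well. Barcode 104 of wild type plate2 library 2, with 49 transcripts in all and 6 of the 10 genes, is an example.

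With the replicate block, the HSC count was 1, that of plate2 8, over both sets 2, that of the difference 0, and plate2 against HSC gave 6 in Mof -/+ and 3 in wild type. The block reversed S100a9 in HSC (0.27). Deviations of the HSC libraries that share a number correlated by -0.0872 over 6690 genes. This single value cannot tell whether those libraries share more than a number. Without marked wells S100a8 stood at 0.41 in HSC and 0.01 in plate2. Left-out libraries took S100a8 from -1.57 to 10.32, S100a9 from -1.34 to 10.41, Mmp8 from -8.70 to 2.95, Lcn2 from -3.21 to 8.36 and Retnlg from -4.79 to 6.10 in HSC. They took Chil3 from -5.35 to 0.75 in plate2, and Lcn2 from -3.03 to 8.55 and Ngp from -3.09 to 8.12 in wild type plate2 against HSC. In marked wells Mcm5 (-0.58), Gstm1 (-0.65) and Prtn3 (-1.05) reversed without a filter, Gstm1 (-0.07) and Prtn3 (-0.76) with 1% of a well, and Srgn without library block (0.35) and with 2000 transcripts per well (0.27). Left-out libraries took Gstm1 from -0.07 to 1.51 and Prtn3 from -0.76 to 1.52. The cause was not tested. Of the gene values under alternatives, 643 kept direction and side of the threshold, 86 lost it, 38 gained it and 22 reversed. Depth of the HSC libraries limits genes such as Mmp9, with 1 and 4 transcripts over the Mof -/+ and wild type kept wells.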
